A study of Rattus norvegicus with 24 samples.

Results

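Ageing with kept spatial learning was examined in CA1, an output field of the hippocampus, by setting aged rats that still learned well against young rats. All animals were male Long-Evans rats, an outbred strain, housed singly and given no treatment. Young rats were 6 months old, and aged unimpaired rats were 24 to 26 months old with a learning index from the Morris water maze inside the range of the young. That index measures how close a rat swims to the hidden platform in probe trials. A further group, aged impaired, had the same age and scores worse than the young. Brains were taken 2 weeks after the maze, CA1 was microdissected, and total RNA of each rat was hybridised to an Affymetrix rat expression array. Arrays were assigned by sample title, which gave 6 aged unimpaired and 9 young arrays, so 15 of the 23 arrays with values entered the comparison. The series has 24 sample columns, and the blank one was an aged unimpaired array. Values are log2 signals, so a difference of 1 is a 2-fold change. Each of the 9028 genes tested was read from its brightest probe set over the 15 arrays.

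CA1 pyramidal cells relay hippocampal output, and their firing and plasticity are needed for spatial memory. They lie among astrocytes, which buffer potassium and glutamate, microglia, which are the resident phagocytes and the main makers of C1q in brain, oligodendrocytes, and vessels wrapped in basement membrane. In ageing rodent brain, genes of complement, antigen presentation and reactive astrocytes are widely known to rise. A microdissected piece holds all of these cells, so fewer cells of a type and less RNA per cell cannot be told apart in the values below.

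The tissue label was checked first. Wfs1, a CA1 pyramidal cell marker, had a log2 signal of 10.83 to 11.69 in the young (median 11.24) and 11.14 to 11.77 in the aged unimpaired rats (median 11.53). Fibcd1, another CA1 marker, averaged 10.97 in young and 11.04 in aged unimpaired rats. A measure of RNA degradation, the signal of 3′ minus 5′ control probe sets, was 1.42 ± 0.0530 (SD, n = 6) against 1.37 ± 0.109 (SD, n = 9), and an exact permutation test gave a two-sided p of 0.260. The aged unimpaired arrays correlated slightly better with the other arrays than the young ones did (median r higher by 0.00136, exact permutation p = 0.00739, two-sided, 5005 splits), and young replicates 5 and 7 correlated least. Young replicate 9 sits among the aged unimpaired columns of the deposited table, and was kept as its title says. Its values for C3, Cd74 and Mgst1 (3.81, 4.62 and 5.91) lay inside the range of the other young arrays, while those for C1qc, Ccn2 and Cryab (7.97, 8.31 and 9.66) were the highest of the young. It was the highest young array in 12 of the 54 rises, against 1 to 8 for each of the other young arrays. Without it 66 genes passed the test, 59 of them among the 67 called with it.

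The arrays also fell into 2 sets that the labels do not mention. Any 2 arrays of a set shared between 20 and 794 identical probe set values (median 52, 121 pairs), whereas the 132 pairs across sets shared 0. The first set held aged unimpaired replicates 1, 2, 3 and 7 and young replicates 1 to 4, and the second held aged unimpaired replicates 4 and 5 and young replicates 5 to 9. Each set also held 4 aged impaired arrays. With age group in the model, 1 of 9028 genes differed between the sets at an unadjusted p under 0.05 and 0 did after adjustment (limma, Benjamini-Hochberg), which is a smaller share than that threshold lets through when nothing differs. Whether the submitters had levelled the gene means of the sets is not given in the sources used here, and what the sets are was not tested. Both sets held both groups, so each result below could be read within them.

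In all, 67 of the 9028 genes, 0.742%, differed between aged unimpaired and young CA1 at an adjusted p under 0.05 (limma, Benjamini-Hochberg). Of these, 54 rose in the aged unimpaired rats, 0.598% of the genes tested, and 13 fell, 0.144%. The median size of a called change was 0.453 on the log2 scale. More than 2-fold changes were few, with 8 rises and 1 fall. C3, Fcgr2b and Mmgt2 met the signal filter only with the aged unimpaired arrays counted, since 5, 1 and 4 of the 9 young arrays were over 4. The young arrays alone would not have let these genes be tested, and without them the calls are 51 rises and 13 falls. C3 and Fcgr2b are also among the 8 rises of more than 2-fold. At an unadjusted p under 0.05, 884 genes differed (9.79%), 612 of them higher (6.78%) and 272 lower (3.01%). The balance of rises and falls moved with the scaling. Subtracting the median of each array split the calls into 51 rises and 30 falls, against 54 and 13 as deposited. A covariate for RNA degradation gave 53 and 26, and leaving out young replicates 5 and 7 gave 55 and 28.

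**Figure D1:**
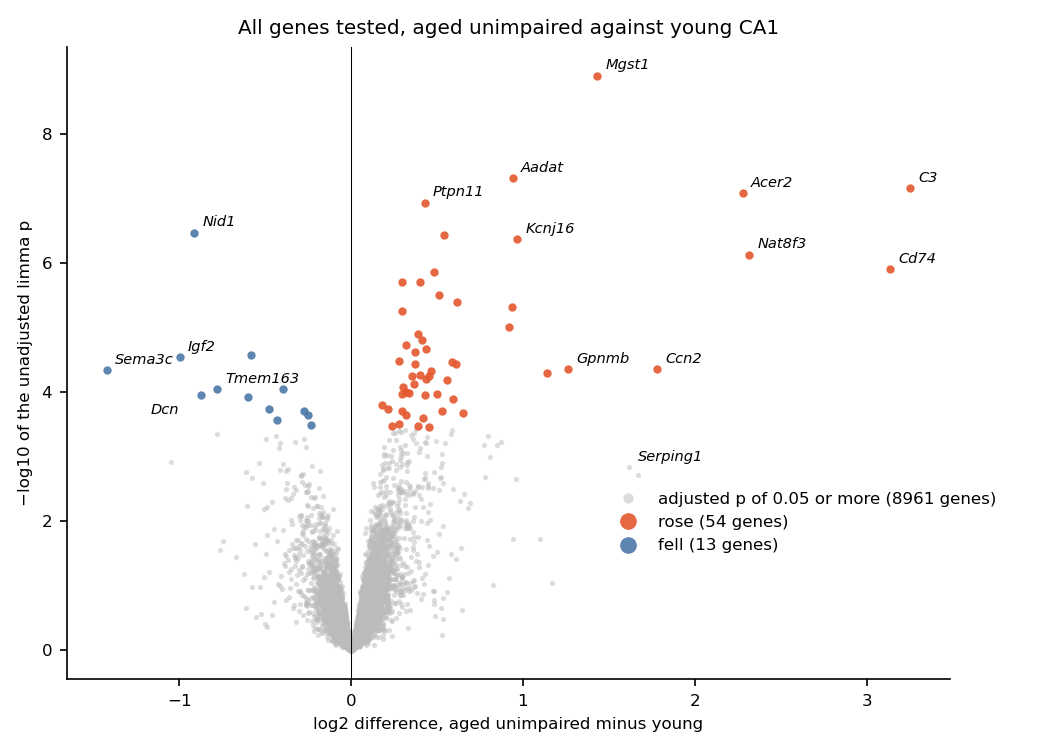
Each point is a gene of the 9028 tested, with the log2 difference of aged unimpaired minus young CA1 on the x axis and −log10 of the unadjusted limma p on the y axis. The 54 genes that rose (red) reach a difference of 3.25 for C3, the 13 that fell (blue) reach -1.42 for Sema3c, and the largest differences among genes that did not pass, such as Serping1 at 1.62, lie below them on the y axis.

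Every one of the 6 aged unimpaired arrays lay above the young mean in 54 of the 54 rises and below it in 13 of the 13 falls. The genes were called on these same arrays, so this describes the calls and is no support for them. The groups did not overlap at all in 35 of the 67 called genes, 32 that rose and 3 that fell. The 32 include C3 and Fcgr2b, which met the signal filter only with the aged unimpaired arrays counted. Over all genes tested, 59 had every aged unimpaired array above every young one (0.654%) and 10 had every one below (0.111%), 69 in all (0.764%), so 27 and 7 genes were separate without passing the adjusted test. The sign was the same in both array sets for all 67, but these genes were called on the same arrays pooled, so this is a description and no support. With the set as a block, 70 genes were called, 58 up and 12 down, and 66 of the 67 were among them. The exception was Zfp658, at an adjusted p of 0.0523. Only 1 of 9028 genes differed in mean between the sets at an unadjusted p under 0.05 (limma), so a block had little to remove. The block fit therefore cannot show that the calls hold apart from the sets. With the few arrays of 1 set, 3 genes passed in the first (Acer2, Mgst1 and Nid1) and 6 in the second (C3, Cd74, Mgst1, Gpnmb, Anxa4 and Cd53). Of these, C3 and Anxa4 met the signal filter only with the aged unimpaired arrays counted. For Anxa4, young replicate 1, at 4.17, was the only young array over 4. The size of the age difference itself differed between the sets in 0 genes after adjustment and in 233 at an unadjusted p under 0.05 (limma). Of the 67 called genes 1 was among the 233, Fxyd1, at 0.51 in the first set and 0.18 in the second.

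**Figure D2:**
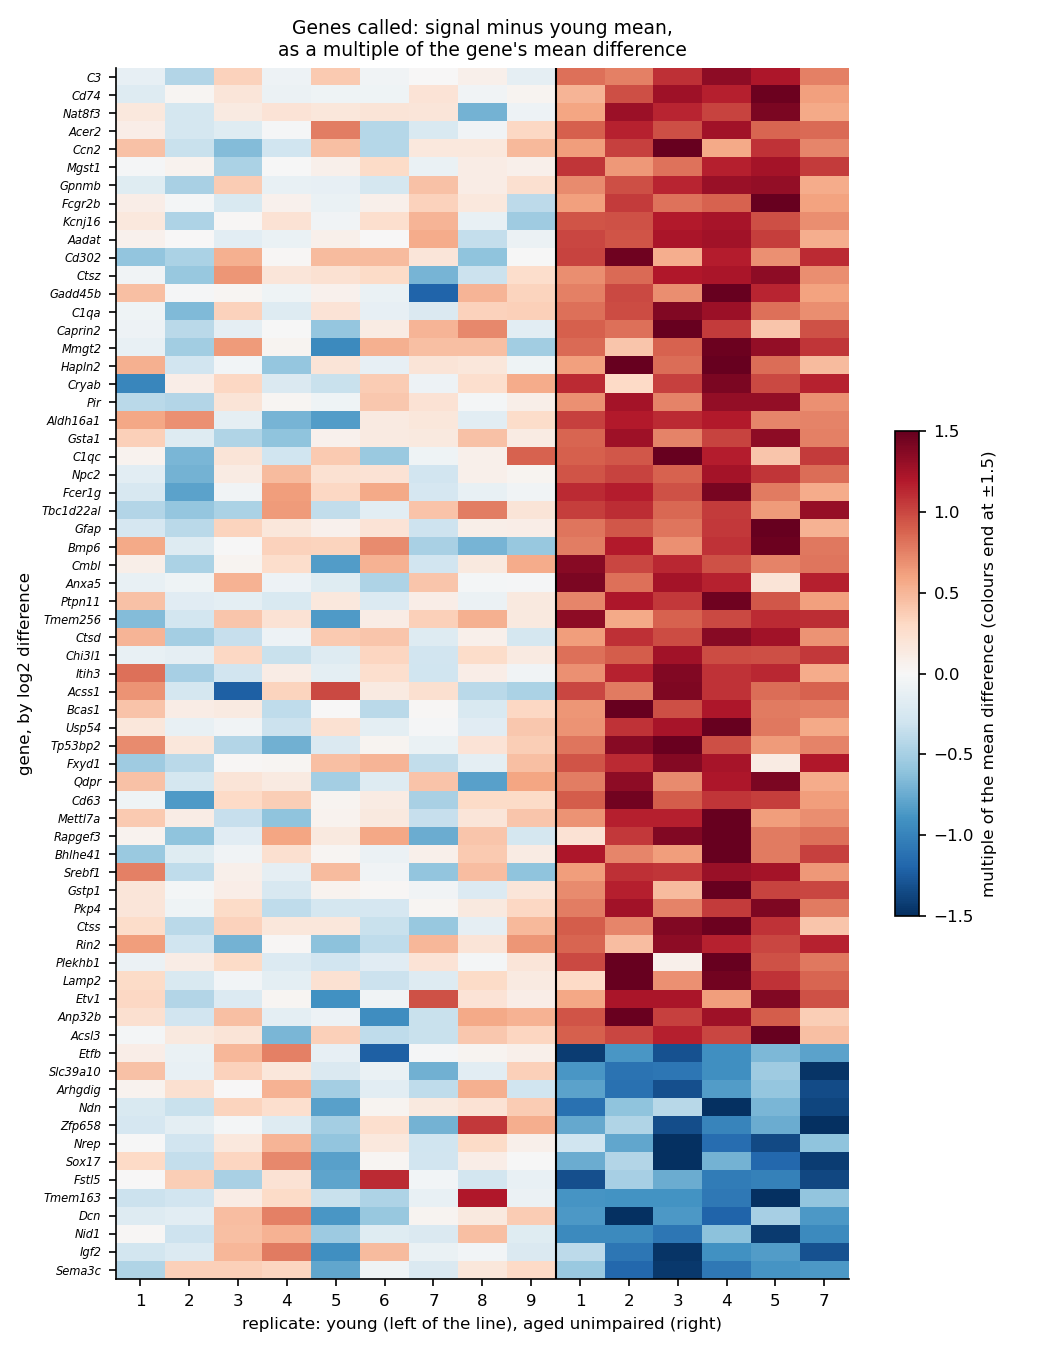
Rows are the 67 called genes ordered by log2 difference and columns are the 9 young arrays (left of the line) and 6 aged unimpaired arrays (right). Colour is the signal minus the young mean as a multiple of the gene's mean difference, red toward a rise and blue toward a fall. All 6 aged unimpaired columns are red over the 54 rises and blue over the 13 falls, with replicate 4 highest in 22 of the 54 rises and replicate 7 lowest in 21. The genes were called on these same arrays.

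Some rats weighed more than others in the calls. Aged unimpaired replicate 4 was the highest of its group in 22 of the 54 rises, and leaving it out reduced the calls to 35 (31 rises, 4 falls). Young replicate 5 was the lowest young array in 9 of the 13 falls, and leaving it out gave 86 calls (60 rises, 26 falls). The falls also dropped to 8 without aged unimpaired replicate 3 and to 8 without young replicate 4. Of the 67 calls, 34 passed in each of the 15 fits that left out 1 array.

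The largest rise was in complement, the cascade of blood and brain proteins that tags material for removal. Of 9 measured complement genes, 3 rose and 0 fell, and the median difference of the list was 0.50 on the log2 scale, against 0.015 over all genes. Over all genes tested, 0.598% rose and 0.144% fell. C3, the component on which the branches of the cascade meet, had a log2 signal of 2.82 to 5.53 in the young (median 4.06) and 6.71 to 8.61 in the aged unimpaired rats (median 7.37). Each aged unimpaired rat lay above each young one. The difference was 3.25 ± 0.42 (SE) with an adjusted p of 0.000187, and it was 3.03 in the first array set and 3.97 in the second. Of the young arrays 4 were under the signal limit of 4, where the value rests on the background correction, so no fold is given. Without C3 the list held 2 rises among 8 genes and its median was 0.40. C1qa and C1qc encode subunits of C1q, which starts the classical pathway. C1qa ran from 9.32 to 9.96 in the young (median 9.69) and from 10.17 to 10.59 in the aged unimpaired rats (median 10.29), without overlap. It rose by 0.62 ± 0.10 (adjusted p = 0.00244). C1qc rose by 0.50 ± 0.11 (adjusted p = 0.0206), with 5 of the 6 aged unimpaired rats above every young rat, and it lost its call in 2 of the 15 leave-outs. Serping1, the C1 inhibitor, did not pass: it ranged from 2.88 to 5.19 in the young and from 4.98 to 6.84 in the aged unimpaired rats, a difference of 1.62 ± 0.45 with an adjusted p of 0.0979.

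**Figure D3:**
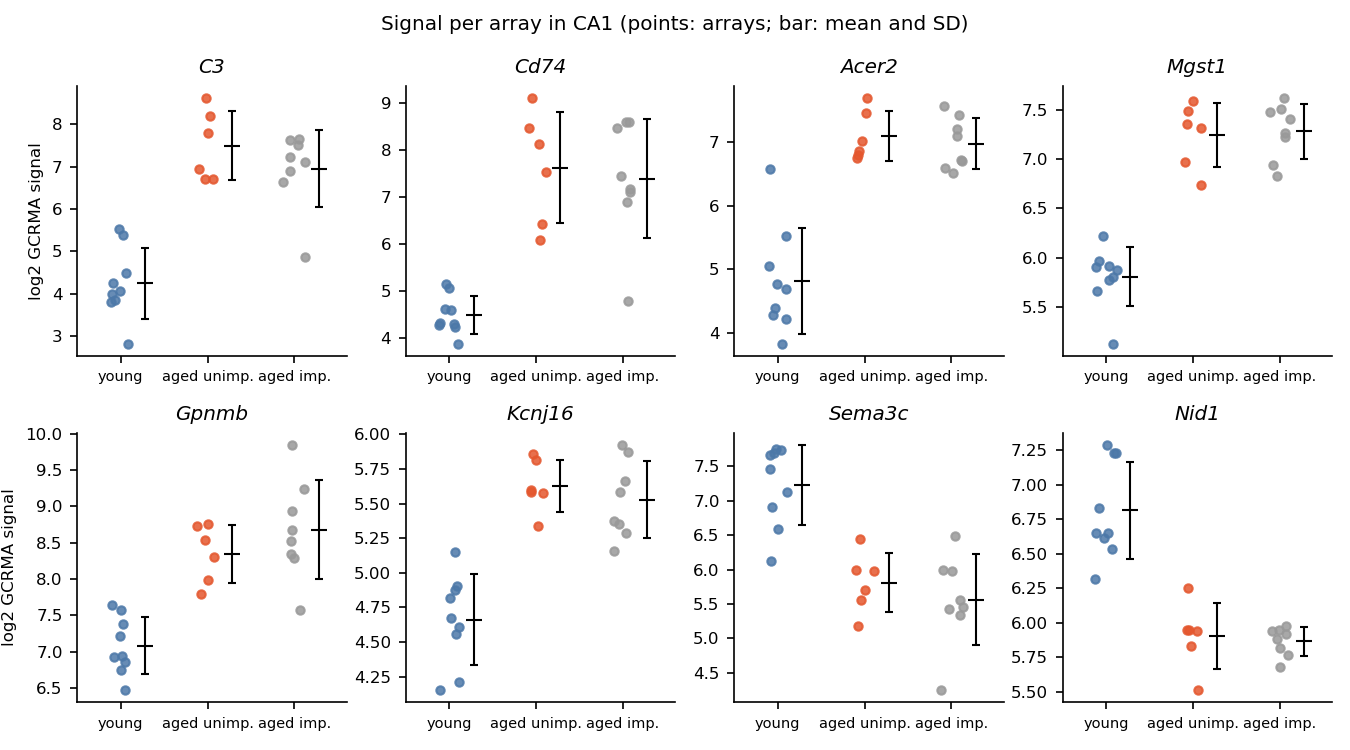
Log2 signal of 8 genes in each array (points) of young, aged unimpaired and aged impaired CA1, with the group mean and SD as bars at the side. C3, Cd74, Acer2, Mgst1, Gpnmb and Kcnj16 have every aged unimpaired array above every young one and Nid1 has every one below, while 5 of 6 are below the young range for Sema3c.

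Antigen presentation gave the second largest rise, in a single gene. Cd74, the invariant chain that escorts MHC class II molecules to the endosome, ran from 3.88 to 5.15 in the young (median 4.32). In the aged unimpaired rats it ran from 6.08 to 9.10 (median 7.83), so the lowest of them stood above the highest young rat. The log2 difference was 3.13 ± 0.48 (adjusted p = 0.00112), from young signals that were close to the limit, and 2.69 and 4.08 within the array sets. Its spread among aged unimpaired rats was wide, with replicates 1 and 7 at 6.08 and 6.43 and replicate 5 at 9.10. Of the 9 measured genes of class II presentation 2 rose, Cd74 and Ctss, a lysosomal protease that trims the invariant chain (0.29, adjusted p = 0.0206). The list's median was 0.041, and 0.598% of all genes tested rose. RT1-Db1, the beta chain of a class II molecule, was near the signal filter in both groups, at 4.198 to 4.79 in young and 4.17 to 4.37 in aged unimpaired rats. None of 14 class I genes passed; B2m, the light chain of class I, was closest at 0.26 with an adjusted p of 0.0525. None of 10 interferon-response genes passed either, though 9 of the 10 were above 0 (58.4% of all genes were) with a median of 0.227, and Eif2ak2, an interferon-induced kinase that blocks translation, differed by 0.30 (adjusted p = 0.0748). Among 17 genes of cytokine and NF-kB signalling 0 passed, with a median of 0.097.

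Microglial genes gave a further group of rises, C1q among them. Of 21 measured microglia and macrophage genes 5 rose and 0 fell, 11 were higher at an unadjusted p under 0.05, and the median difference was 0.294. Over all genes tested, 0.598% rose and 6.78% were higher at that threshold. The summed signal of the list was 13.6 to 13.9 on the log2 scale in aged unimpaired rats and 13.2 to 13.6 in the young. Fcgr2b, the inhibitory receptor for IgG, ran from 3.34 to 4.19 in young rats (median 3.87) and from 4.47 to 6.11 in aged unimpaired rats (median 4.76). The fitted difference was 1.14 ± 0.23 (adjusted p = 0.0135), but 8 of the 9 young arrays were under the signal limit of 4 and the gene was tested only because the aged unimpaired arrays were over it. Without Fcgr2b the list held 4 rises among 20 genes, with a median of 0.291. Replicate 5 stood alone at the top of the aged unimpaired rats. Fcer1g, the signalling chain shared by activating Fc receptors, rose by 0.46 (adjusted p = 0.0131), with 5 of 6 aged unimpaired rats above the young range. Cd302, a lectin-type receptor of phagocytes, was in no list and ran from 8.92 to 9.99 in the young and from 9.99 to 10.85 in the aged unimpaired rats, the groups just failing to overlap. It rose by 0.93 ± 0.16 (adjusted p = 0.00275).

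The list of phagocytic, lipid-loaded microglia gave a similar share, 5 rises of 19 (0.598% of all genes tested rose) and a median of 0.247. Gpnmb, a transmembrane glycoprotein of phagocytes that carry lipid, had signals of 6.47 to 7.64 in the young (median 6.94) and 7.79 to 8.75 in the aged unimpaired rats (median 8.41). These ranges were separate, and the rise was 1.26 ± 0.25, 2.40-fold (adjusted p = 0.0128), with 1.19 and 1.55 within the array sets. The other 4 rises in this list, Ctsz, Npc2, Ctsd and Cd63, are lysosomal and are also counted below. Whether more microglia or more RNA per microglial cell lay behind these values was not tested.

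Lysosome genes rose too, and Ctsz, Npc2, Ctsd and Cd63 are also in the list of phagocytic microglia. Of 47 measured lysosome and autophagy genes 6 rose (12.8%, against 0.598% of all genes tested) and 0 fell. In the list 35 were above 0 (58.4% of all genes were), and the median was 0.060. Ctsz, a cysteine protease, had the largest of these differences. It ran from 6.13 to 7.38 in the young (median 6.93) and from 7.41 to 7.99 in the aged unimpaired rats (median 7.71), just without overlap, and rose by 0.92 ± 0.16 (adjusted p = 0.00489). Npc2, which carries cholesterol out of the lysosome lumen, ran from 10.51 to 11.08 in the young and from 11.26 to 11.46 in the aged unimpaired rats, and rose by 0.48 ± 0.07 (adjusted p = 0.00115). Ctsd, the main aspartic protease of the lysosome, ran from 10.18 to 10.60 in the young and from 10.64 to 10.94 in the aged unimpaired rats, and rose by 0.41 ± 0.08 (adjusted p = 0.0071). Cd63, a tetraspanin of late endosomes, and Lamp2, a glycoprotein of the lysosomal membrane, rose by 0.34 (adjusted p = 0.0206) and 0.28 (adjusted p = 0.0113). For Ctsz, Npc2, Ctsd, Cd63 and Lamp2 all 6 aged unimpaired rats were above all 9 young rats. Lamp2 has a second probe set, and there the difference was 0.04 ± 0.08, so the rise was seen by 1 of its 2 probe sets.

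Promoters were read because 2 of these groups are known for shared control: many lysosomal genes carry an E-box read by TFEB, and many glutathione genes an antioxidant response element read by Nrf2. The 250 bases before each gene's start were taken from RefSeq on the rat build GRCr8 and searched on both strands for the E-box CACGTG, the antioxidant response element TGACNNNGC, the STAT site TTCNNNGAA, an NF-kB site and the CCAAT box CCAAT. A promoter was held for 38 measured lysosome genes, and 8 of them (21.1%) had CACGTG, against 6.18% of all 27457 promoters and 9.08% of the 7590 of genes tested. Of the lysosomal genes that rose, Ctsd and Cd63 held it. Their windows are shown with the E-box in capitals, and they end at the base before the start. The Ctsd window is chr1:206968822-206969071 on the minus strand, with matches that begin 157 and 10 bases before the start, and the Cd63 window is chr7:1921894-1922143 on the plus strand, with a match 190 bases before it.
Ctsd: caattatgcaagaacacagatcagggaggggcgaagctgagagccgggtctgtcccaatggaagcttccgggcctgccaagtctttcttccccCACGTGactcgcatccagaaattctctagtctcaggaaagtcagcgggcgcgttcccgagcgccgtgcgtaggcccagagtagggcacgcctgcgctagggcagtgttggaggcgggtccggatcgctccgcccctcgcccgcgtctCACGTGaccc
Cd63: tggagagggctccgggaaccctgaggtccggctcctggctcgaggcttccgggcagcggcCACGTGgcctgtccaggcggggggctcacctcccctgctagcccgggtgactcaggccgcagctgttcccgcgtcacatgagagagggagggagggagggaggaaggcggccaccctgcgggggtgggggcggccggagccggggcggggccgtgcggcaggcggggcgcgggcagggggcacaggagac
Over the 46 rises with a promoter, 8.70% held CACGTG, 13.04% TGACNNNGC (13.2% of the genes tested), 6.52% TTCNNNGAA (5.92%), 43.5% CCAAT (36.9%) and 0 the NF-kB site (0.356%). Among the 15 largest rises, 13 had a promoter, of which 1 held CACGTG, 1 TTCNNNGAA, 4 CCAAT and 0 TGACNNNGC. Of the 13 falls, 9 had a promoter, and 1 held CACGTG, 3 CCAAT and 0 TGACNNNGC. These are matches of letters and were not tested as binding sites.

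The gene with the smallest p in the comparison conjugates glutathione. Mgst1, a glutathione transferase of the endoplasmic reticulum and outer mitochondrial membrane, ran from 5.13 to 6.22 in the young (median 5.88) and from 6.73 to 7.59 in the aged unimpaired rats (median 7.33). All aged unimpaired rats were above all young ones, and it was the only gene called within each array set. The difference of 1.43 ± 0.15, 2.70-fold, had the smallest adjusted p of the 9028 genes, 1.14e-05, and was 1.44 and 1.60 in the sets. Gsta1, a soluble transferase of the alpha class, ran from 11.003 to 11.53 in the young and from 11.69 to 12.00 in the aged unimpaired rats, and rose by 0.51 ± 0.08 (adjusted p = 0.00201). Gstp1, of the pi class, ran from 10.92 to 11.05 in the young and from 11.14 to 11.48 in the aged unimpaired rats. That narrow but complete separation was a rise of 0.30 ± 0.05 (adjusted p = 0.00295). Probes of such gene families can take signal from close copies, which was not tested. Over the antioxidant and glutathione list 3 of 37 measured genes rose, 11 were higher at an unadjusted p under 0.05 and 0 lower, and the median was 0.066. The shares over all genes tested were 0.598%, 6.78% and 3.01%. Nfe2l2, which encodes Nrf2, differed by 0.29 (adjusted p = 0.0791). Pir, an iron-binding nuclear protein known as a target of Nrf2 and in no list here, ran from 6.51 to 6.97 in the young and from 7.12 to 7.46 in the aged unimpaired rats, and rose by 0.54 ± 0.08 (adjusted p = 0.000482).

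The antioxidant response element TGACNNNGC lay in 9 of the 34 measured antioxidant genes with a promoter, 26.5%, against 13.2% of the genes tested and 11.02% of all promoters. Of the genes that rose, Gstp1 and Pir carried it and are shown with the element in capitals. Gsta1, which also rose and had a promoter, did not carry it. The Gstp1 window is chr1:210769706-210769955 on the minus strand, with the match 61 bases before the start, and the Pir window is chrX:33851050-33851299 on the minus strand, with matches 114 and 9 bases before the start that read in reverse.
Gstp1: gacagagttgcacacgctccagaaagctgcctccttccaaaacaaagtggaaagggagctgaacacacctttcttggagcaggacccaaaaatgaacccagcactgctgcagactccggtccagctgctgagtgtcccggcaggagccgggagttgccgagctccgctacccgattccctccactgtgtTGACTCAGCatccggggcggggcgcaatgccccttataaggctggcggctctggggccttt
Pir: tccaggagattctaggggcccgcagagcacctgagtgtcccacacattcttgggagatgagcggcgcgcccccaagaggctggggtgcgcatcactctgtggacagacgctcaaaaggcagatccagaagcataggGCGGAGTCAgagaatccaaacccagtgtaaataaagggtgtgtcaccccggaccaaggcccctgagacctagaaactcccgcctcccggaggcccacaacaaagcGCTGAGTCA
Itih3, Aldh16a1, Tbc1d22al and Plekhb1 were the other rises with this element, so 6 of 46 held it, near the share of the genes tested.

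Acer2, Nat8f3 and Aadat were among the 15 largest rises. Acer2, a Golgi ceramidase that splits ceramide into sphingosine and a fatty acid, ran from 3.83 to 6.58 in the young (median 4.69) and from 6.75 to 7.69 in the aged unimpaired rats (median 6.94). Young replicate 5 was high at 6.58, yet still below every aged unimpaired rat. The difference was 2.28 ± 0.30 (adjusted p = 0.000187), and 2.41 and 2.26 within the array sets. Nat8f3, of the NAT8 family of N-acetyltransferases, ran from 3.53 to 5.65 in the young (median 5.53) and from 6.47 to 8.43 in the aged unimpaired rats (median 7.66), also without overlap. It rose by 2.32 ± 0.35 (adjusted p = 0.000747). Aadat, which makes kynurenic acid, an endogenous antagonist of glutamate receptors, ran from 5.78 to 6.64 in the young (median 6.11) and from 6.62 to 7.29 in the aged unimpaired rats (median 7.07). Of the aged unimpaired rats 5 were above every young one, and young replicate 7 overlapped with the lowest. The rise was 0.94 ± 0.12 (adjusted p = 0.000187), while the other 4 measured kynurenine genes did not pass. Srebf1, a transcription factor of lipid synthesis, and Acsl3, which activates fatty acids, rose by 0.30 (adjusted p = 0.0183) and 0.18 (adjusted p = 0.0274). Of 43 genes of cholesterol synthesis and lipid transport 2 rose, Srebf1 and Npc2, and the median was 0.029.

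Astrocyte genes changed by less than C3 or Cd74. Kcnj16, the Kir5.1 potassium channel subunit, ran from 4.15 to 5.15 in the young (median 4.68) and from 5.34 to 5.86 in the aged unimpaired rats (median 5.59), without overlap, and rose by 0.97 ± 0.14 (adjusted p = 0.000482). Gfap, the intermediate filament of astrocytes, ran from 12.32 to 12.66 in the young (median 12.54) and from 12.74 to 13.36 in the aged unimpaired rats (median 12.90). These too were separate, with a rise of 0.45 ± 0.09 (adjusted p = 0.0140), 0.36 and 0.65 within the array sets. They were the 2 rises among 30 astrocyte genes, whose median was 0.081, with a summed signal of 17.0 to 17.1 against 16.8 to 17.0. Of 14 reactive astrocyte genes 3 rose, C3, Gfap and Cryab (0.598% of all genes tested rose), and the median was 0.276. C3 met the signal filter only with the aged unimpaired arrays counted, so Gfap and Cryab are the rises without it. Vim, an intermediate filament of reactive glia, had all 6 aged unimpaired rats above the young range but an adjusted p of 0.0559 for a difference of 0.44. Chi3l1, a secreted chitinase-like protein, rose by 0.40 ± 0.06 (adjusted p = 0.0014), from 10.15 to 10.41 in the young to 10.61 to 10.79. Fxyd1, a regulator of the sodium pump, rose by 0.37 (adjusted p = 0.0169).

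The oligodendrocyte genes that passed the test rose. Of 33 measured genes 5 rose (Hapln2, Cryab, Bcas1, Qdpr and Plekhb1) and 0 fell, and the median was 0.026. At an unadjusted p under 0.05, 9 were higher and 7 lower. Over all genes tested, 0.598% rose, and 6.78% were higher and 3.01% lower at the unadjusted threshold. Hapln2, a link protein of the nodes of Ranvier, ran from 7.84 to 8.50 in the young and from 8.47 to 9.14 in the aged unimpaired rats, with 1 of the 6 inside the young range, and rose by 0.59 ± 0.12 (adjusted p = 0.0114). Bcas1, a protein of myelinating oligodendrocytes, ran from 12.31 to 12.63 in the young and from 12.72 to 13.09 in the aged unimpaired rats, without overlap, and rose by 0.39 ± 0.07 (adjusted p = 0.00606). Cryab, a small heat shock protein of glia, rose by 0.56 ± 0.11 (adjusted p = 0.0149). Its relative Hspb8 was separate between the groups but missed the threshold, with a difference of 0.59 and an adjusted p of 0.0505. Mbp, the major myelin protein, differed by -0.01 ± 0.04 (adjusted p = 0.990). None of 14 oligodendrocyte precursor genes passed, with a median of -0.070.

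Further rises stood outside these groups. Ccn2, a matrix-associated growth regulator, ran from 6.29 to 8.31 in the young (median 7.73) and from 8.45 to 10.93 in the aged unimpaired rats (median 9.01), without overlap. It rose by 1.78 ± 0.35, 3.43-fold (adjusted p = 0.0128), by 2.30 and 1.18 within the array sets, and replicate 3 was far above the other aged unimpaired rats. Ccn2 is also a marker of deep cortical neurons. With Etv1 (0.24, adjusted p = 0.0457) it made the 2 rises among 18 markers of neighbouring cortex and thalamus, whose median was -0.044. Their summed signal was 13.3 to 13.5 in aged unimpaired and 13.2 to 13.6 in young rats. The part of such tissue in the Ccn2 difference was not tested. Etv1 was called in 11 of 28 alternative fits outside single array sets, and its other probe sets differed by 0.26, 0.21, 0.17 and 0.06. Gadd45b, induced by stress and by neuronal activity, ran from 4.63 to 5.74 in the young and from 5.80 to 6.60 in the aged unimpaired rats and rose by 0.65 ± 0.15 (adjusted p = 0.0331), but lost its call in 7 of the 15 leave-outs. Caprin2, an RNA-binding protein, rose by 0.61 ± 0.12 (adjusted p = 0.0114). Ptpn11, the phosphatase SHP2 downstream of growth factor receptors, rose by 0.43 ± 0.06 (adjusted p = 0.000211), from 11.51 to 11.79 in the young to 11.86 to 12.23, though a second, dim probe set differed by 0.03. Bhlhe41, a repressor of the circadian clock, was the 1 rise among 18 clock genes (0.32, adjusted p = 0.00797), Anxa5, which binds phosphatidylserine, the 1 among 13 annexin and S100 genes (0.43, adjusted p = 0.0206), and Itih3, a heavy chain of the inter-alpha-trypsin inhibitors, the 1 among 15 protease inhibitors (0.40, adjusted p = 0.0138). All 13 annexin and S100 genes were above 0 (58.4% of all genes were), with a median of 0.107. The largest difference among them, 0.85 for Anxa4, did not pass. Anxa4 met the signal filter only with the aged unimpaired arrays counted.

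**Figure D4:**
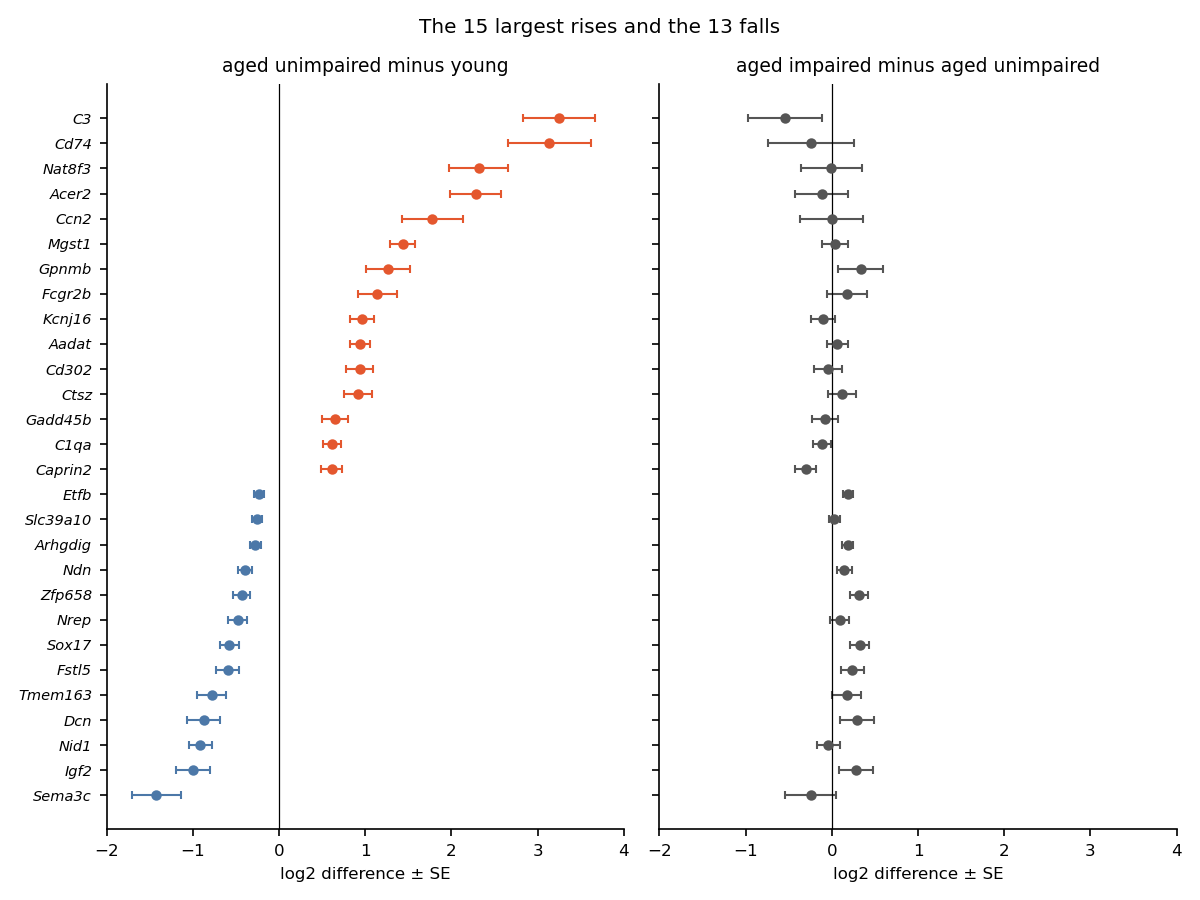
Log2 differences with their SE for the 15 largest rises and the 13 falls among called genes. The left panel is aged unimpaired minus young (red rose, blue fell), and the right panel is aged impaired minus aged unimpaired for the same genes, where no gene passed the adjusted test. On the left the values run from 3.25 for C3 to -1.42 for Sema3c, and on the right C3 is at -0.55.

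Sema3c, a secreted semaphorin that guides axons and vessels, had the largest of the 13 falls. It ran from 6.13 to 7.75 in the young (median 7.47) and from 5.18 to 6.44 in the aged unimpaired rats (median 5.84). All but 1 of the aged unimpaired rats lay below every young one, and young replicate 5 was the lowest of its group. The log2 difference was -1.42 ± 0.28, a signal 2.68-fold lower (adjusted p = 0.0128), and -1.65 and -1.22 within the array sets. It was the 1 call among 42 genes of semaphorins, ephrins and axon guidance, with a list median of -0.026. Of the 42, 9 were lower and 0 higher at an unadjusted p under 0.05 (3.01% and 6.78% of all genes tested). Sema3g and Sema6a, related semaphorins, differed by -0.49 (adjusted p = 0.209) and -0.23 (adjusted p = 0.0973).

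Nid1, nidogen, which ties laminin to collagen IV in basement membranes, had the smallest p of the falls. It ran from 6.32 to 7.29 in the young (median 6.65) and from 5.51 to 6.26 in the aged unimpaired rats (median 5.94), without overlap. The difference was -0.91 ± 0.13, a signal 1.88-fold lower (adjusted p = 0.000482), it was -1.06 and -0.81 within the array sets, and it was the 1 fall called under every one of 28 alternative fits outside single array sets. Dcn, decorin, a small proteoglycan that binds collagen, ran from 7.44 to 8.86 in the young and from 6.70 to 7.77 in the aged unimpaired rats, with 2 of 6 below the young range, and fell by 0.88 on the log2 scale (adjusted p = 0.0208). Of 34 basement membrane and matrix genes these 2 fell and Ccn2 rose, and the median was -0.065. In that list 10 were lower and 3 higher at an unadjusted p under 0.05 (3.01% and 6.78% of all genes tested). Col4a5, a chain of collagen IV, had every aged unimpaired rat (5.48 to 6.45) below every young rat (6.50 to 7.09) but missed the threshold at -0.78 (adjusted p = 0.0526). Igf2, an insulin-like growth factor made in brain mainly by meninges, vessels and choroid plexus, ran from 6.71 to 8.40 in the young (median 7.53) and from 6.16 to 7.23 in the aged unimpaired rats (median 6.63). It fell by 0.998 on the log2 scale (SE 0.19, adjusted p = 0.0104), with 3 of 6 below the young range, and it was the 1 call among 25 insulin and IGF genes. Dcn and Igf2 were also the 2 falls among 13 markers of meninges and fibroblasts, of which Bmp6 rose (0.43, adjusted p = 0.0149). The summed signal of those markers was 12.7 to 12.9 in aged unimpaired and 12.6 to 12.9 in young rats, and the part of meningeal tissue in the Igf2 and Dcn differences was not tested.

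Vessel genes gave 1 call. Sox17, a transcription factor of arterial endothelium, ran from 7.27 to 8.16 in the young (median 7.76) and from 6.87 to 7.48 in the aged unimpaired rats (median 7.18), and fell by 0.58 on the log2 scale (SE 0.11, adjusted p = 0.0101). The ranges overlapped, with 3 of 6 aged unimpaired rats below every young rat. Of 24 endothelial genes 10 were lower and 1 higher at an unadjusted p under 0.05 (3.01% and 6.78% of all genes tested), and the median was -0.137. Sox18, its close relative, Ramp2, a receptor partner for adrenomedullin, and Slco1a4, an organic anion transporter of the blood-brain barrier, differed by -0.53, -0.42 and -0.40, with adjusted p of 0.0900, 0.0599 and 0.0921. The summed endothelial signal was 13.67 to 13.72 in aged unimpaired and 13.68 to 13.995 in young rats. Among 13 pericyte and smooth muscle genes 0 passed, 12 were below 0 (58.4% of all genes were above 0) and the median was -0.107.

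Among the other falls was that of Tmem163, a zinc transporter of synaptic vesicles. Its signal ran from 4.94 to 6.24 in the young (median 5.21) and from 4.002 to 4.83 in the aged unimpaired rats (median 4.60), without overlap. It fell by 0.78 on the log2 scale (SE 0.17, adjusted p = 0.0188), and young replicate 8 stood above the rest. With Slc39a10, a zinc importer of the cell surface (-0.25, adjusted p = 0.0346), it made 2 falls among 15 zinc genes. Ndn, necdin, an imprinted gene of postmitotic neurons, ran from 10.76 to 11.23 in the young and from 10.37 to 10.91 in the aged unimpaired rats and fell by 0.40 on the log2 scale (adjusted p = 0.0188). Fstl5, a follistatin-like secreted protein, fell by 0.60 (adjusted p = 0.0213), and Nrep, linked to neuronal regeneration, by 0.48 (adjusted p = 0.0302). Arhgdig ran from 9.29 to 9.58 in the young and from 9.06 to 9.27 in the aged unimpaired rats, without overlap, and fell by 0.28 (adjusted p = 0.0311). Zfp658, a zinc finger protein, and Etfb, the beta subunit of the electron transfer flavoprotein, fell by 0.43 (adjusted p = 0.0395) and 0.23 (adjusted p = 0.0457), and lost their calls in 11 and 13 of the 15 leave-outs. Slc39a10 lost its call in 10, Nrep and Arhgdig in 7 each and Fstl5 in 4.

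**Figure D5:**
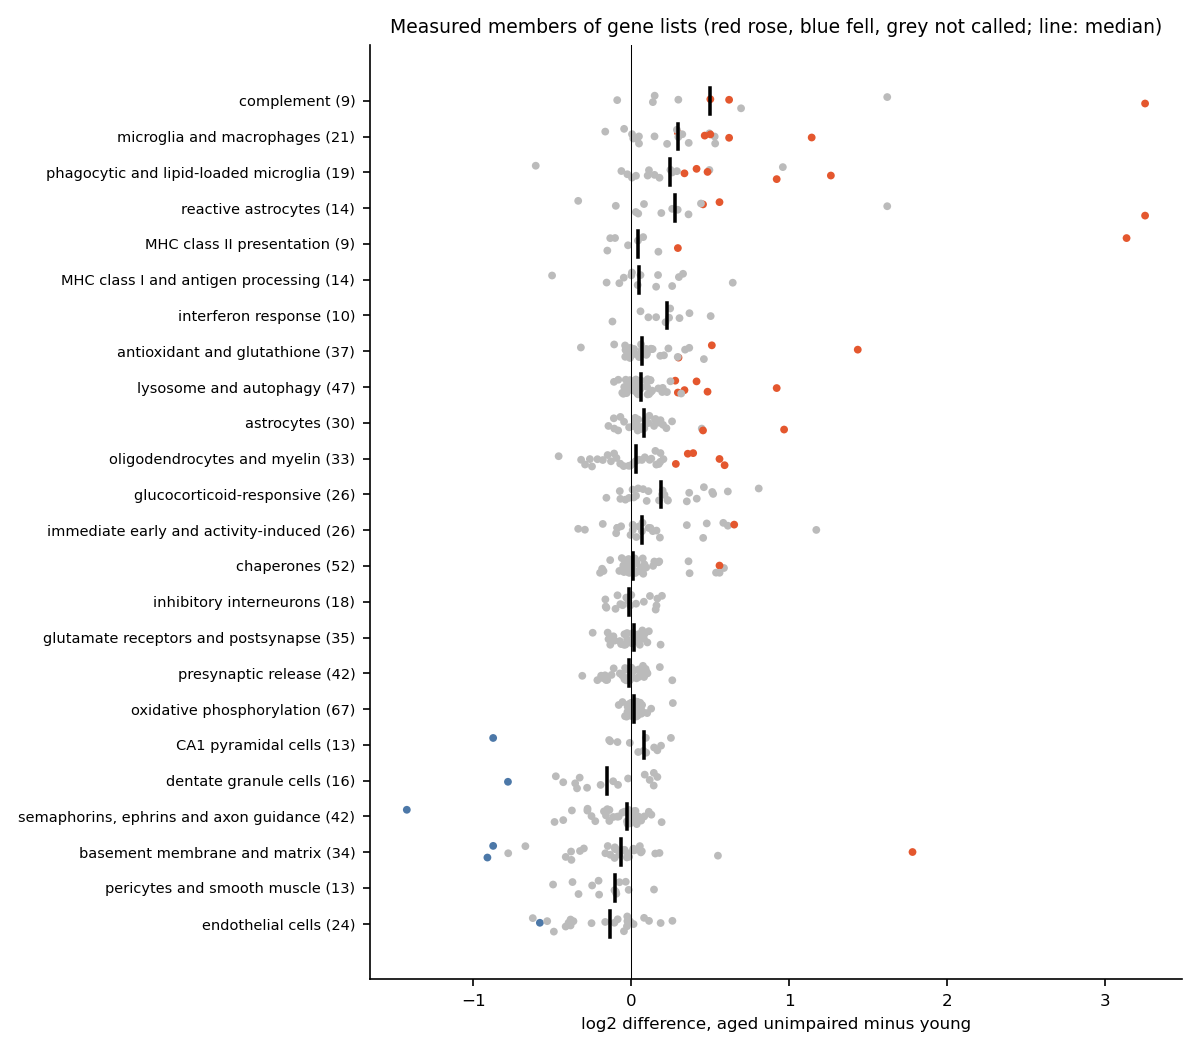
Each point is a measured gene of the list named at the left (number measured in brackets), placed by its log2 difference of aged unimpaired minus young, with red for genes that rose, blue for genes that fell, grey for genes that did not pass and a line at the list's median. Complement has the median furthest to the right at 0.50, or 0.40 without C3. The lists of neuronal transmission have medians from -0.014 to 0.014, and dentate granule and endothelial genes have medians of -0.155 and -0.137.

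Genes of neuronal transmission gave no calls. None passed among 35 genes of glutamate receptors and the postsynapse, 42 of presynaptic release, 14 GABA receptor genes, 18 of inhibitory interneurons, 44 of calcium signalling and 35 potassium and sodium channel genes. Their medians lay between -0.014 and 0.014, and at an unadjusted p under 0.05 these lists held 0, 3, 1, 4, 0 and 5 genes. Over all genes tested, 0.742% were called and 9.79% were under that unadjusted threshold. At the first share, lists of these sizes would hold few calls, so their absence does not set these genes apart. Interneuron genes differed by little: Gad1, which makes GABA, differed by -0.07 ± 0.06, Npy by -0.10 ± 0.13, Sst by -0.00 ± 0.15 and Reln by -0.16 ± 0.13 (adjusted p from 0.771 to 0.998). Pvalb, a calcium buffer of fast-spiking interneurons, differed by 0.16 ± 0.05 (adjusted p = 0.229). Bdnf, a neurotrophin released with activity, differed by -0.29 ± 0.22 (adjusted p = 0.741). None of these misses shows that the levels were equal. In data simulated for this comparison, the fit found 47.8% of planted log2 changes of 0.25 and 88.2% of those of 0.5. Each simulated run held 200 changes of up to 2 on the log2 scale in independent normal noise, while the arrays gave 67 calls. These percentages may therefore overstate what the fit could find here.

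Activity-induced genes had 1 rise of 26, Gadd45b, and 5 of 26 were higher at an unadjusted p under 0.05 (6.78% of all genes tested were). Arc, which acts at active synapses, ran from 8.70 to 10.66 in the young (median 9.72) and from 9.82 to 10.99 in the aged unimpaired rats (median 10.26). The ranges overlapped widely, and the difference of 0.58 ± 0.25 had an adjusted p of 0.431. Junb and Nr4a1, transcription factors induced with it, differed by 0.48 (adjusted p = 0.443) and 0.45 (adjusted p = 0.385), and Egr1 by 0.18 (adjusted p = 0.799). Of 26 glucocorticoid-responsive genes 0 passed, 21 were above 0 (58.4% of all genes were) and the median was 0.184. Sgk1, a kinase induced by glucocorticoids, was highest at 0.81 ± 0.21 (adjusted p = 0.0794), and Klf15, another induced gene, differed by 0.37 (adjusted p = 0.0525).

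Among housekeeping pathways, 0 of 67 oxidative phosphorylation, 31 glycolysis, 35 proteasome and 39 cytosolic ribosomal genes passed. Of the ribosomal genes 37 of 39 were above 0 (58.4% of all genes were), with a median of 0.071. Rps6 was closest to the threshold at 0.13 ± 0.04 (adjusted p = 0.136). Chaperones had 1 rise of 52, Cryab. No gene passed among 23 amyloid, tau and synuclein genes, 32 chromatin modifiers, 24 genes of immature neurons and 20 neurotrophin and growth factor genes. Of all genes tested 0.742% were called, so lists of these sizes would hold few calls at that share.

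Markers of neighbouring fields were read as a check on the dissection. Of 13 CA1 pyramidal markers 1 fell, Dcn, with a list median of 0.077 and a summed signal of 14.96 to 15.09 in aged unimpaired and 14.85 to 15.20 in young rats. Among 12 markers of CA3 and CA2, 0 passed and 4 were lower at an unadjusted p under 0.05 (3.01% of all genes tested were). Their median was -0.099, with sums of 13.2 to 13.4 and 13.3 to 13.8. Among 16 dentate markers Tmem163 fell, 4 were lower at that threshold and the median was -0.155, with sums of 13.69 to 13.90 and 13.68 to 13.95. Nnat, a CA3 marker, differed by -0.37 ± 0.12 (adjusted p = 0.183). Choroid plexus and blood markers gave 0 calls of 5 and of 3. Ttr, the main choroid plexus transcript, ran from 5.69 to 9.50 in the young and from 4.74 to 7.79 in the aged unimpaired rats. The part of neighbouring fields in the differences above was not tested.

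Some genes were completely separate without a call, which describes these arrays and is no support for the calls. The widest gaps below the young belonged to Nid1, Tmem163 and Arhgdig, which fell, and to Col4a5, Lmo2, Gng3, Snapc1, Myadm, Tubb2a and Ets1, which did not pass. Lmo2, a transcriptional cofactor of endothelium and blood precursors, ran from 6.76 to 7.53 in the young and from 5.96 to 6.72 in the aged unimpaired rats (-0.43 ± 0.11, adjusted p = 0.0546). Tubb2a, a beta-tubulin, showed how small such a gap can be, with 13.65 to 13.77 in the young, 13.61 to 13.65 in the aged unimpaired rats and a difference of -0.08 (adjusted p = 0.314). Ptgds, prostaglandin D synthase of meninges and oligodendrocytes, lay at 11.42 to 11.56 in the young and 11.71 to 12.12 in the aged unimpaired rats, a difference of 0.39 ± 0.12 with an adjusted p of 0.144.

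How far these differences belong to kept learning was asked directly, by testing aged impaired (8 arrays) against aged unimpaired CA1 in the same fit. At an adjusted p under 0.05, 0 genes differed (0.0%), the smallest adjusted p being 0.254, and 631 (6.99%) differed at an unadjusted p under 0.05. With the replicate number as a block 1 gene passed, Dusp6, a phosphatase of ERK (-0.54, adjusted p = 0.0422). For C3 the impaired minus unimpaired difference was -0.55 with a 95% interval of -1.44 to 0.34, for Cd74 -0.24 (-1.27 to 0.78), for Mgst1 0.04 (-0.27 to 0.35) and for Nid1 -0.04 (-0.31 to 0.24). These intervals include 0 and, for C3 and Cd74, changes of over 2-fold downward. Of the 54 rises, 28 had a lower mean in impaired than in unimpaired rats. Of the 13 falls, 11 had a higher mean in the impaired rats, and both comparisons use the same 6 aged unimpaired arrays. Against the same 9 young arrays, the 8 aged impaired arrays gave 336 called genes (3.72%), a count that also rests on more aged arrays.

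At an unadjusted p under 0.05, 9 of the 67 called genes differed between the aged groups, against 6.99% of all genes tested. The called genes were picked on the same aged unimpaired arrays, which by itself can move this contrast back toward the young level. Caprin2, Cryab, Sox17, Zfp658, Arhgdig and Etfb differed in that direction, and Gstp1, Fcer1g and Srebf1 in the other. The count therefore cannot tie these genes to kept learning. Gstp1 was higher still in the impaired rats, at 11.38 to 11.65 (median 11.52), by 0.23 (0.12 to 0.33, unadjusted p = 0.000251). Fcer1g and Srebf1 were also higher there, by 0.21 and 0.14, and Caprin2 and Cryab were lower, with differences of -0.30 and -0.26. The other 4, Sox17, Zfp658, Arhgdig and Etfb, had fallen in the unimpaired rats and were higher in the impaired ones, by 0.32, 0.31, 0.18 and 0.19. None passed the adjusted test, so no called gene was shown to differ between aged rats that learned well and aged rats that did not. Other genes with small p in this contrast had no age call, such as Ctxnd1, with a difference of -0.60 (-0.86 to -0.34), and Lgi3, a secreted protein related to the synaptic ligand Lgi1, higher by 0.29 (0.15 to 0.42).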

How the data were processed

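RNA of CA1 from 23 rats was read on expression arrays, 1 per rat, and the titles call them biological replicates. The authors deposited log2 signals, computed by GCRMA per the submitters' processing notes. The version and settings of GCRMA are not given in the sources used here. GCRMA corrects background, normalizes and sums probes, so dim signals and small ranges depend on it. Of 31099 probe sets, 20832 had 1 gene symbol, 436 several and 9831 none. Probe sets with a log2 signal over 4 on at least 6 of the 15 arrays were kept, and the brightest on average stood for its gene, which left 9028 of 14218 genes. Values were used as deposited. Means of 3 groups over 23 arrays were fitted with limma 3.58.1 in R 4.3.3 (lmFit, eBayes), adjusted by Benjamini-Hochberg and called at an adjusted p under 0.05. The median standard error was 0.0716. The number of arrays limits the precision. Genes without enough signal were not tested.

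Named genes were the 15 largest rises and falls among calls, up to 4 members of each list with the smallest p, a panel of 15 genes, the 5 smallest p in each direction between the aged groups, and the 10 widest gaps each way. Other called or single genes, among them Fibcd1, Dusp6 and Cd53, were named after their values were seen. The comparison, lists and rules were chosen with earlier results of these data known. The fit was tested on simulated data with 200 changed genes of 9028 in 10 runs, and 5.27% of its calls were false. Alternatives were other filters, scalings, array weights, moderation, an RNA covariate, a replicate block, leave-outs and, chosen after seeing the data, the array sets and the removal of 2 arrays. Replicate numbers are not said to pair the rats. Values of the same number correlated between -0.119 and -0.037, which cannot settle whether rats were paired or handled together. Promoters are RefSeq's on GRCr8, matched by symbol.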

Additional observations from a re-analysis of the deposited data

Results flagged for a closer look

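In 126 genes named or used above, the highest and lowest array of each group was set against its nearest neighbour by Dixon's criterion, and 18 of the 252 groups had an array far from the rest, 10 aged unimpaired and 8 young. Chance gives about 1 in 20 such groups. In the aged unimpaired rats, replicate 5 was apart for Fcgr2b (6.11), Fxyd1 (8.04), Hspb8 (7.70) and Myh11 (5.63). Replicate 3 was apart for Ccn2 (10.9), Grb14 (9.00) and Lmo2 (5.96). Replicate 2 was high for Eif2ak2 (7.51) and Gad2 (6.91), and replicate 1 low for A2m (6.52). In the young rats, replicate 7 was high for Aadat (6.64) and low for Gadd45b (4.63), replicate 4 low for Hspb8 (6.07) and high for Lmo2 (7.53), and replicate 5 high for Npy (9.47) and Snapc1 (7.69). Replicate 6 was low for Etfb (9.07) and replicate 8 high for Tmem163 (6.24).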

How the results depend on the processing

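The 67 calls (54 rises, 13 falls) became 152 (112 and 40) with array weights, 31 (28 and 3) with the replicate block, 3 (2 and 1) within array set 1, 6 (6 and 0) within array set 2, 134 (109 and 25) at an adjusted p under 0.1 and 23 (22 and 1) under 0.01. The falls alone moved to 22 with quantile normalization, 30 with arrays centred on their median, 26 with the RNA covariate and 28 without the 2 arrays of lowest correlation. Leaving out 1 array gave 35 to 86 calls, 31 to 65 rises and 4 to 26 falls, and 34 to 63 of the 67 were kept. Across 28 alternative fits, thresholds and single sets aside, 24 of the 67 genes passed in each (23 rises and 1 fall, Nid1). No called gene reversed in any alternative, all of which reuse these arrays. Between the aged groups the replicate block gave 1 call in place of 0. The numbers are not said to pair the rats, and 0 of 6 correlated best with its own number, which cannot settle it. Of the 31 calls under the block, 30 were among the 67. Small differences of genes that did not pass turned positive: Mbp to 0.072 with the mean of its probe sets, 0.030 within set 2 and -0.026 to 0.0055 in the leave-outs. Npy turned to 0.058 within set 2. Sst turned to 0.029 with array weights, 0.042 with the RNA covariate, 0.128 without the 2 arrays, 0.107 within set 1 and -0.082 to 0.075 in the leave-outs. Gad2 turned to 0.027 with the RNA covariate and 0.018 without the 2 arrays. The causes were not tested, beyond the fewer arrays of the single sets. Genes near the signal limit, such as C3, Cd74 and Fcgr2b in young rats, have differences whose size rests on the background correction.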
